A study of Mus musculus with 14 samples.

Results

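Short interspersed elements (SINEs) are short retrotransposon copies scattered through the mouse genome, and the peaks described here are those that the authors' annotation placed inside one. Members were all peaks off the mitochondrial genome (chrM) whose repeat annotation named the class SINE, in each of 10 peak lists made by chromatin immunoprecipitation and sequencing (ChIP-seq). They numbered 51040 of 517016 peaks, against 61543 peaks in LINEs and 50680 in LTR elements. All libraries came from C2C12 cells, a mouse myoblast line that fuses into myotubes in low serum, taken on day 2 of differentiation. The siMyolinc cells had been transfected at 10 nM with an siRNA that targets Myolinc, a long noncoding RNA, and the labels do not say whether control cells received a control siRNA or none. The antibodies were directed against TDP-43, a DNA- and RNA-binding protein, against RNA polymerase II phosphorylated at serine 2 (Pol II S2P, the elongating form), and against the myogenic transcription factors MyoD and Myogenin. TDP-43 had 1 siMyolinc and 3 control libraries, and each other antibody had 1 siMyolinc and 1 control library. The 4 input and IgG samples had no list of their own. Nothing in the labels says whether the 3 TDP-43 controls came from separate cultures. P-values therefore reflect no more than the spread among libraries, which for the TDP-43 controls could be technical. The series asked whether Myolinc and TDP-43 act together at promoters of muscle genes. ChIP-seq of 1 cell line holds no expression values, so neither the knockdown nor the cell type was checked here.

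SINEs do not encode their own enzymes and are copied by the machinery of LINEs. Rodent B1 elements, which the annotation files under the family name Alu, descend from the signal recognition particle RNA, while B2, ID and the old MIR elements descend from transfer RNAs and B4 joins parts of both. Intact copies carry an internal promoter for RNA polymerase III with a conserved B box, and B1_Mm, B1_Mus1 and B1_Mus2 are among the youngest B1 names in the mouse, with many near-identical copies. TDP-43 is known to prefer repeats of the dinucleotide TG in DNA and UG in RNA, and MyoD and Myogenin bind E-boxes.

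Promoter windows of RefSeq genes (GRCm38.p6, from 250 bases before a start to 50 after it) gave the sequence of a few of these elements. SINE peaks met the windows of 74 genes, among 32851 windows, and had their centre inside those of 41. The stretches that follow are 6 copies of B2_Mm2 or B2_Mm1t with the centre of a peak in the window, shown on the strand of the element because they hold both a B box and a TG repeat. They were chosen after the matches were seen. Capitals mark the B box core GTTCNANNC and the TG repeat GTGTGT.
Gm28888: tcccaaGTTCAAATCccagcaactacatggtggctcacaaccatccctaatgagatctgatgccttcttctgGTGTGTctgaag
Gm31152: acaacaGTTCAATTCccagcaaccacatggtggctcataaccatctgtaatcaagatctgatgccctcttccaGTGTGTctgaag
Gm35874: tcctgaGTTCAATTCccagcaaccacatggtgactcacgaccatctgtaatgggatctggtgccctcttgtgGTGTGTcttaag
Gm36685: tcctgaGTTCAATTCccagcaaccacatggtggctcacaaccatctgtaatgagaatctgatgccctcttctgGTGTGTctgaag
Gm40240: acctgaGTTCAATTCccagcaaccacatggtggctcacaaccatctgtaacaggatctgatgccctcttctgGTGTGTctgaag
LOC115487199: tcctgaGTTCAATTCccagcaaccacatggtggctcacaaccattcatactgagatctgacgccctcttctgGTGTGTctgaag

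The TG repeat began 66 or 67 bases after the start of the B box in all 6 copies. The Gm35874 copy (chr8:123652798-123652881, minus strand) lay under a TDP-43 siMyolinc peak of 6 sequence tags, with Rhou, a small GTPase gene, as the nearest gene. Peaks of Pol II S2P siMyolinc covered the Gm40240 copy (chr4:123901332-123901415, minus strand, 7 tags) and the LOC115487199 copy (chr9:118894695-118894778, plus strand, 9 tags). The Gm31152 copy (chr7:12870779-12870863, plus strand) lay partly under a MyoD siMyolinc peak of 21 tags, and the Gm28888 copy (chr1:88472037-88472120, plus strand, 26 tags) and the Gm36685 copy (chr9:22990032-22990116, plus strand, 21 tags) under Myogenin control peaks. Each of these copies was thus met by a SINE peak in 1 list, and together these peaks came from all 4 antibodies. Among the 41 windows with a SINE peak centre, 8 lay in B2_Mm elements, of which 7 held the B box and 6 the TG repeat. Over all 41, searched on both strands, the B box core was present in 12 (29.3%, 95% Wilson interval 17.6 to 44.5%), beside 9.32% of all windows. GTGTGT was also present in 12 of the 41, beside 17.4% of all windows. Both motifs in the order shown, on 1 strand and with 40 to 90 bases between their starts, were found in 78 of all windows (0.237%). These matches describe letters in a window and do not place a protein there.

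Young B1 copies under the centre of a TDP-43 control peak were available in 2 windows, and they are shown because these names set the control lists apart in the results that follow. Capitals mark the longest run that both share.
Gm35634: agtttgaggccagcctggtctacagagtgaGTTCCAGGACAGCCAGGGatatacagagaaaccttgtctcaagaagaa
Gm38650: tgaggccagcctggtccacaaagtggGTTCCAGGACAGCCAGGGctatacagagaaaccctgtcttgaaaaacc

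The Gm35634 copy is a B1_Mus1 at chr4:131409473-131409550 (plus strand), with 6 tags in TDP-43 control 1. The Gm38650 copy is a B1_Mm at chr3:137358161-137358234 (plus strand), with 45 tags in MyoD siMyolinc and 5 tags in TDP-43 control 1. The shared run has 18 bases and occurs in 25 of all windows (0.0761%).

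SINE peaks made up a larger share of the TDP-43 list after Myolinc knockdown than in any of its controls. The share was 10.5% in TDP-43 siMyolinc (2614 of 24960 peaks), against 3.92% (1164 of 29703), 3.24% (342 of 10571) and 2.85% (233 of 8162) in TDP-43 controls 1 to 3. The siMyolinc library stood above all 3 controls, whose mean was 3.34 ± 0.539% (SD, n = 3). The difference was 7.14 percentage points, a 3.14-fold higher share. All SINE peaks carried an intron or intergenic label. Peaks so labelled made up 87.0% of TDP-43 siMyolinc, against 71.7%, 65.1% and 63.0% of controls 1 to 3. Among those peaks alone the SINE share was 12.0% in siMyolinc, against a control mean of 4.99%, a difference of 7.05 points. The exact two-sided permutation test of 1 library against 3 gave p = 0.25, the smallest value it can give, so no difference between these groups can pass 0.05.

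The Pol II S2P pair showed a difference of the same sign, and the pairs of the myogenic factors one of the opposite sign. SINE peaks made up 13.4% of Pol II S2P siMyolinc (15534 of 116064), against 6.24% of Pol II S2P control (669 of 10715). Intron and intergenic peaks made up 91.2% of Pol II S2P siMyolinc, against 69.5% of Pol II S2P control. SINE shares of the MyoD and Myogenin pairs differed less. SINE peaks made up 9.68% of MyoD siMyolinc (10604 of 109522), against 10.8% of MyoD control (7735 of 71878). For Myogenin they made up 7.87% in siMyolinc (1608 of 20441), against 9.16% in control (10537 of 115000). With a single library in each condition, the differences for these 3 antibodies were not tested one by one. Averaged over the 4 antibodies the siMyolinc share was 2.98 percentage points higher, and 7.14 points higher without the MyoD and Myogenin pairs. Permuting conditions within antibody gave an exact two-sided p = 0.1875, and 0.234 after Benjamini-Hochberg adjustment over the SINE share and the 4 family shares. Sequencing depth moved with the condition in the pairs where the share was higher. If peak scores are scaled to 10000000 tags, HOMER's default, which neither the headers nor the labels state, TDP-43 siMyolinc held 3253048 tags, against 962386 to 1394415 in its controls. Pol II S2P siMyolinc held 3774980 tags, against 1455044 in its control. The 4 MyoD and Myogenin libraries held 3040129 to 3400215 tags. Depth and knockdown therefore cannot be told apart for TDP-43 and Pol II S2P.

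**Figure D1:**
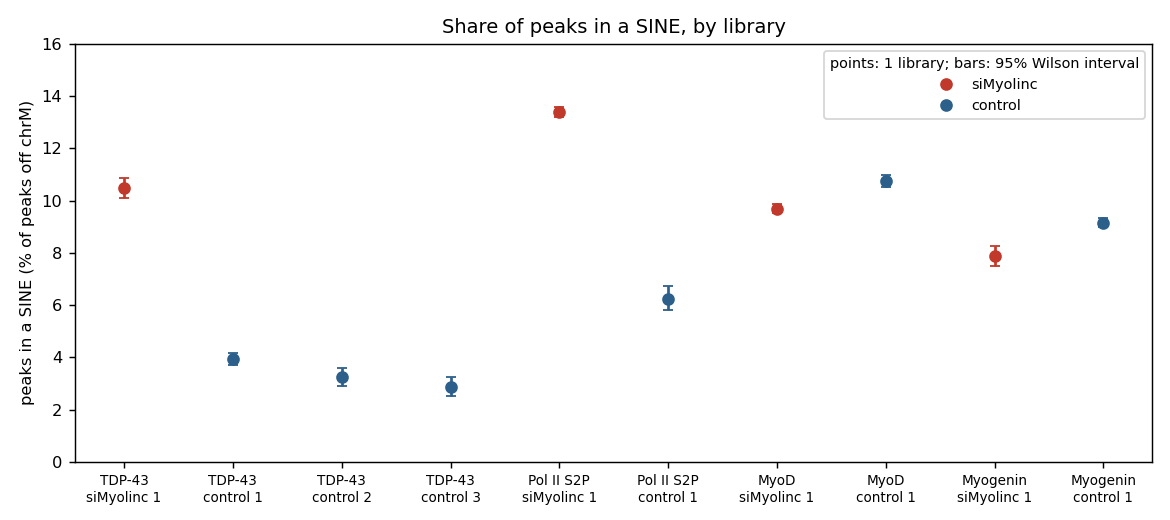
Share of peaks off chrM that lay in a SINE, in percent, for each library, with siMyolinc in red left of control in blue and bars for 95% Wilson intervals, which cover counting error only. The TDP-43 siMyolinc library stood at 10.5% above its 3 controls at 2.85 to 3.92%, and Pol II S2P siMyolinc at 13.4% above its control at 6.24%, while MyoD and Myogenin siMyolinc stood below their controls.

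In control cells SINEs took up less of the TDP-43 lists than of the lists of the other antibodies. The mean share was 3.34 ± 0.539% in TDP-43 control, against 8.72 ± 2.29% over Pol II S2P, MyoD and Myogenin control (SD, n = 3 each). The first SD is a spread among libraries of 1 antibody, the second a spread between antibodies with 1 library each. Among intron and intergenic peaks alone the mean shares were 4.99% and 10.0%. The test took the 3 other antibodies as 1 group. All 3 TDP-43 controls lay below all 3 other controls, and the exact two-sided permutation test gave p = 0.1, the smallest value that 3 libraries against 3 can give. The lowest of the other 3 was Pol II S2P control, which was also the one closest to the TDP-43 controls in depth. Whether depth contributed to the difference was not tested.

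Other repeat classes did not all follow the SINEs. The LTR share was 10.8% in TDP-43 siMyolinc, against 4.95 ± 0.844% in TDP-43 control (SD, n = 3), a 2.17-fold higher share. The LINE share was 9.76% in TDP-43 siMyolinc, against 9.37 ± 0.286% in TDP-43 control (SD, n = 3). Simple repeats, which include the TG runs that TDP-43 prefers, made up 1.32% of TDP-43 siMyolinc peaks, against 9.12 ± 0.867% in TDP-43 control (SD, n = 3). The siMyolinc library thus stood well above every control in SINEs and LTR elements, 1.04-fold above the control mean in LINEs and below every control in simple repeats. The Pol II S2P pair had ratios of siMyolinc to control of 2.14 for SINEs, 2.29 for LTR elements, 0.826 for LINEs and 0.145 for simple repeats.

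The make-up of the SINE peaks also differed between the TDP-43 conditions. Members of the Alu family, in the mouse the B1 elements and their relatives, made up 32.8% of SINE peaks in TDP-43 siMyolinc, against 44.0%, 52.9% and 58.4% in TDP-43 controls 1 to 3. B2 elements made up 30.0% in TDP-43 siMyolinc, against 19.1%, 16.1% and 15.0% in the controls. MIR elements, the oldest of these families, made up 5.62% in TDP-43 siMyolinc, against 2.41%, 0% and 1.29% in the controls. In TDP-43 control 2 the MIR count was 0 of 342, which allows a share of up to 0.877% by 3 counts of the total and up to 1.11% by the Wilson interval. The siMyolinc library lay outside the range of its controls for Alu, B2 and MIR. B4 elements made up 29.7% in TDP-43 siMyolinc, against 32.8%, 28.7% and 23.2% in the controls, inside their range. Against the control means the differences were -18.9 points for Alu, 13.3 for B2, 4.39 for MIR and 1.47 for B4. The B4 difference changed sign, to -1.05 points without control 3 and to -3.09 points among peaks at or above their list's median score. The exact two-sided permutation test of 1 library against 3 gave p = 0.25 for Alu, B2 and MIR and p = 0.75 for B4.

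The Pol II S2P pair differed in the same direction in all 4 families. Alu members made up 39.5% of SINE peaks in Pol II S2P siMyolinc, against 70.4% in Pol II S2P control. B2 made up 27.5% in siMyolinc, against 12.7% in control. B4 made up 27.0% in siMyolinc, against 13.8% in control, and MIR 4.06% in siMyolinc, against 1.79% in control. In the MyoD and Myogenin lists the make-up was close, in both conditions, to that of TDP-43 siMyolinc and Pol II S2P siMyolinc. There Alu ranged over 33.5 to 37.7%, B2 over 25.4 to 30.2%, B4 over 26.3 to 29.8% and MIR over 5.94 to 6.38%. Averaged within antibody, the differences of siMyolinc from control were -12.3 points for Alu, 5.57 for B2, 4.92 for B4 and 1.60 for MIR. After Benjamini-Hochberg adjustment the exact permutation p was 0.234 for Alu, B4 and MIR and 0.25 for B2, so none passed 0.05. The families ID, tRNA and Deu made up the rest, with 972, 60 and 35 peaks over all lists.

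**Figure D2:**
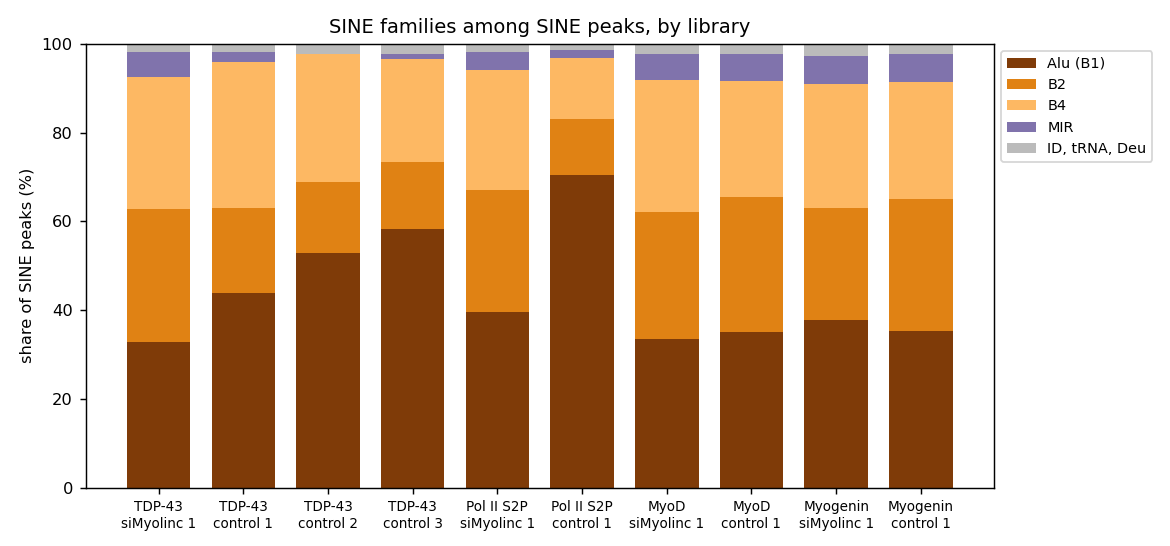
Share of SINE peaks by family, in percent of each library's SINE peaks, as bars stacked to 100%. Alu members filled 32.8% of the bar in TDP-43 siMyolinc, against 44.0 to 58.4% in the TDP-43 controls, and 39.5% in Pol II S2P siMyolinc, against 70.4% in Pol II S2P control.

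Repeat names within the families showed where the difference lay. There were 37 names, and the 10 most frequent held 36374 SINE peaks (71.3%). B3, a B2-family element, was the most frequent with 5950 peaks and made up 12.4% of SINE peaks in TDP-43 siMyolinc, against 6.19%, 5.56% and 3.43% in TDP-43 controls 1 to 3. B2_Mm2 made up 8.26% in TDP-43 siMyolinc, against 3.78%, 2.34% and 2.58%. Both names stood above every control. The young B1_Mus1 made up 6.62% in TDP-43 siMyolinc, against 11.7%, 20.8% and 19.3% in controls 1 to 3. B1_Mus2 made up 5.16% in siMyolinc, against 13.7%, 13.5% and 18.5%, and B1_Mm 2.83%, against 8.16%, 11.7% and 12.9%. All 3 young names stood below every control. In Pol II S2P the same names made up 9.63%, 7.22% and 4.32% in siMyolinc, against 27.2%, 19.7% and 14.2% in control. B4A, RSINE1 and B4 lay inside the TDP-43 control range. B3A, at 6.24% in TDP-43 siMyolinc, against 7.22%, 7.02% and 7.30%, stood below every control, and ID_B1, at 6.58%, against 5.67%, 5.26% and 4.29%, above every control. Of 34 names with at least 20 peaks, the TDP-43 siMyolinc share was above every control for 18 and below every control for 5. A single library often falls outside the range of 3 others without any difference between groups. The shares of names also depend on each other, and controls 2 and 3 held 342 and 233 SINE peaks. These counts are therefore not read as a result.

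The 3 young B1 names were then counted as 1 group, which was chosen after these values were seen. Their share of all peaks was close in the TDP-43 conditions, while that of the other SINEs was not. Young B1 peaks made up 1.53% of all peaks in TDP-43 siMyolinc, against 1.31%, 1.49% and 1.45% in TDP-43 controls 1 to 3 (mean 1.41 ± 0.0902%, SD, n = 3). All other SINEs made up 8.94% in TDP-43 siMyolinc, against 2.61%, 1.75% and 1.41% in the controls (mean 1.92 ± 0.617%, SD, n = 3). The ratio of siMyolinc to the control mean was 1.08 for young B1 and 4.65 for the other SINEs. In Pol II S2P young B1 made up 2.83% in siMyolinc, against 3.82% in control, and the other SINEs 10.6% in siMyolinc, against 2.43% in control. Young B1 stayed between 1.44 and 1.66% of all peaks in the 4 MyoD and Myogenin lists. Across all 10 lists the 2 Pol II S2P libraries alone exceeded that upper value. Within the Alu family young names made up 44.5% in TDP-43 siMyolinc, against 83.2 ± 6.11% in TDP-43 control (SD, n = 3), and 53.6% in Pol II S2P siMyolinc, against 86.8% in Pol II S2P control. The older PB1 and B1F names made up 31.5% of Alu in TDP-43 siMyolinc, against 8.70 ± 3.67% in TDP-43 control (SD, n = 3). How reads that fit many near-identical copies were placed is not given in the sources used here, and its part in these shares was not tested.

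**Figure D3:**
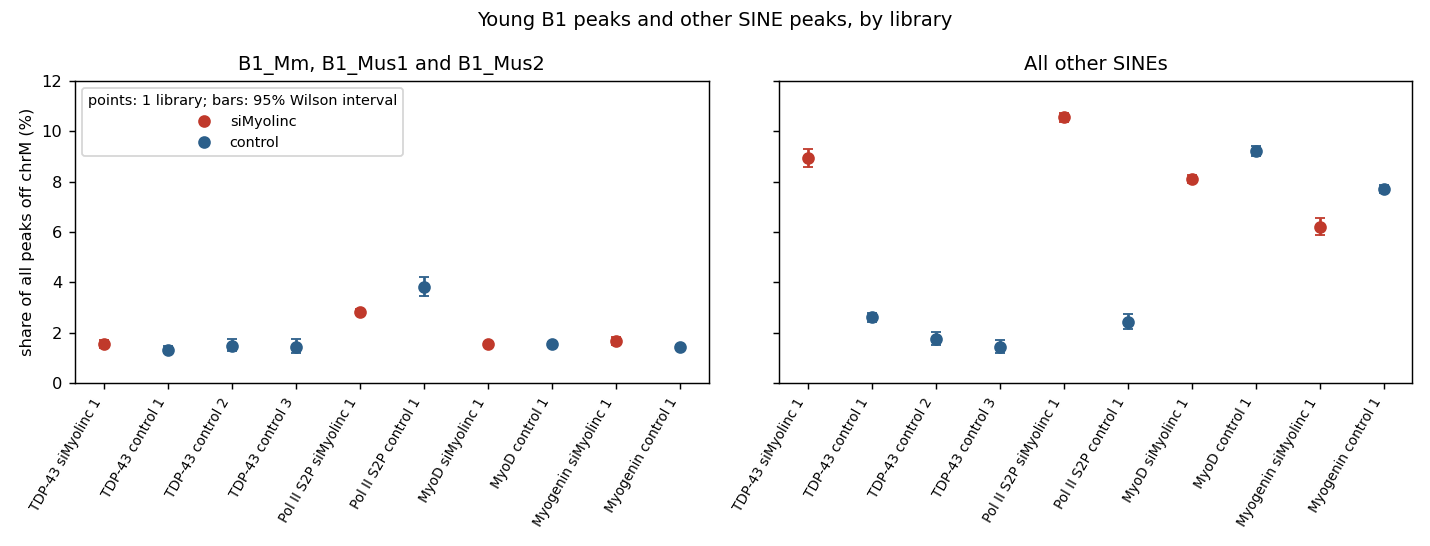
Peaks in B1_Mm, B1_Mus1 and B1_Mus2 (left) and in all other SINEs (right), in percent of all peaks off chrM, for each library, with siMyolinc in red left of control in blue and bars for 95% Wilson intervals. On the left TDP-43 siMyolinc lay at 1.53% beside controls at 1.31 to 1.49%, and on the right at 8.94% above controls at 1.41 to 2.61%.

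SINE peaks held few sequence tags in the TDP-43 lists and many more in some others. A peak's score is the authors' own value, and scores in a list were whole multiples of 1 step, read here as the worth of 1 tag. The median SINE peak held 7 tags in TDP-43 siMyolinc, against 6, 6 and 5 in TDP-43 controls 1 to 3. It held 11 tags in Pol II S2P siMyolinc, against 5 in its control, 23 in MyoD siMyolinc, against 8, and 138 in Myogenin siMyolinc, against 15. These tags were not adjusted for depth, and the differences were not particular to SINEs. The median of all other peaks was 11 against 6 in Pol II S2P, 24 against 8 in MyoD and 137 against 15 in Myogenin. The siMyolinc lists of MyoD and Myogenin also had a median peak width of 75 bp, against 217 to 249 bp in the other 8 lists. The ratio of the median of SINE peaks to that of all other peaks lay between 0.75 and 1.01 in the 10 lists. In the TDP-43 controls SINEs were less frequent among the better-scoring peaks. They made up 2.33%, 2.62% and 2.22% of the peaks at or above the median score in controls 1 to 3, against 5.89%, 4.33% and 3.97% of those below it. In TDP-43 siMyolinc these shares were 10.2% and 11.2%. The direction was not particular to the TDP-43 controls, as Pol II S2P control had 4.77% and 8.68%. Pol II S2P siMyolinc, the MyoD lists and Myogenin control had the same direction, while Myogenin siMyolinc had 7.97% and 7.76%. Tied scores made the upper part unequal, with 17777 of 24960 peaks in TDP-43 siMyolinc. In TDP-43 controls 1 to 3 it held 16449 of 29703, 6757 of 10571 and 5186 of 8162 peaks. The difference between the TDP-43 conditions was 7.80 points in that part. It was 6.97 points with each list cut to its 8162 best peaks.

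SINE peaks were found again between the TDP-43 controls less often than peaks in general. A peak counted as found again where another list had a peak overlapping it by 1 bp or more. Of SINE peaks, 6.96% in TDP-43 control 1 (81 of 1164), 24.3% in control 2 (83 of 342) and 31.8% in control 3 (74 of 233) were met by either of the other controls. Of all peaks these shares were 19% in control 1, 50.3% in control 2 and 56.3% in control 3. The 95% Wilson interval of the SINE share lay below the share of all peaks in each control, at 5.63 to 8.57%, 20.0 to 29.1% and 26.1 to 38.0%. LINE peaks gave 18.1%, 43.5% and 50.6% and LTR peaks 14.5%, 47.3% and 55.8% in controls 1 to 3. Simple repeats gave 10.0%, 24.5% and 29.0%, above the SINE share in control 1 and within its interval in controls 2 and 3, so a low share was not particular to SINEs. Among SINEs the Alu family had low shares, young B1 peaks with 3.85%, 16.6% and 22.9% and other Alu peaks with 4.10% (5 of 122), 8.33% (2 of 24) and 11.1% (2 of 18), and their intervals overlapped in each control. The B2 shares were 9.91%, 29.1% and 54.3% and the B4 shares 8.90%, 35.7% and 38.9%. Over all 90 ordered pairs of lists, which share libraries, the SINE share was below that of all peaks in 79 and above it in 11. The whole Wilson interval lay below in 64 pairs and above in 2.

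**Figure D4:**
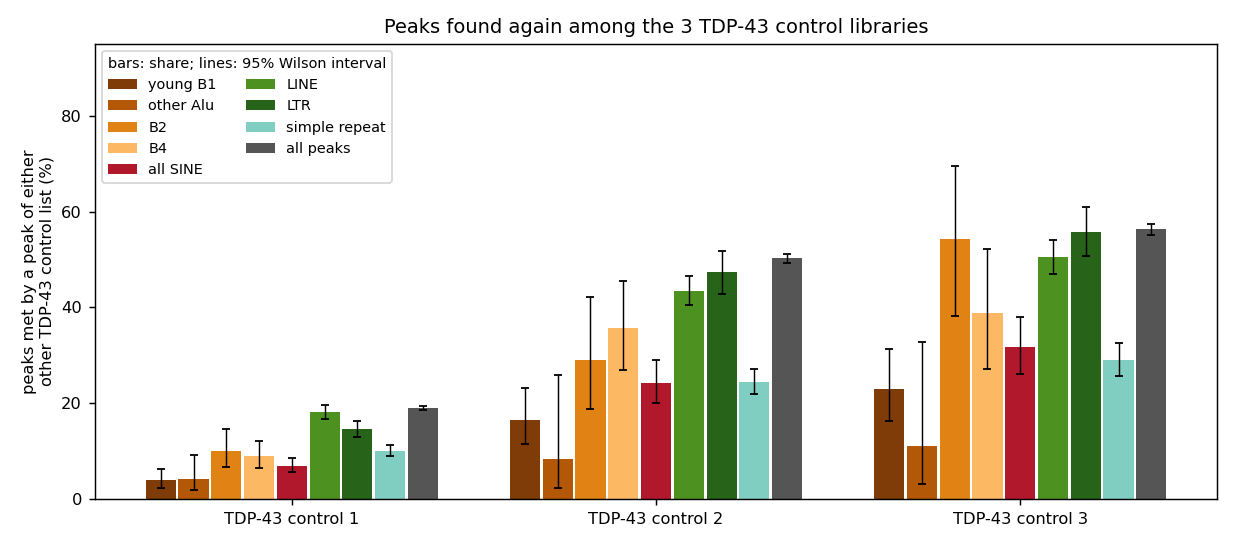
Peaks of each TDP-43 control list that were met by a peak of either other TDP-43 control, in percent, by repeat class, with lines for 95% Wilson intervals. SINE bars stood at 6.96, 24.3 and 31.8% in controls 1 to 3, below the bars of all peaks at 19, 50.3 and 56.3%, while simple repeats stood at 10.0, 24.5 and 29.0%. Young B1 and other Alu bars stood lowest in each control.

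Few control SINE peaks were found again after knockdown. The TDP-43 siMyolinc list met 2.58%, 3.22% and 3.86% of the SINE peaks of TDP-43 controls 1 to 3, against 5.88%, 7.08% and 7.36% of all their peaks. For Pol II S2P 5.98% of control SINE peaks were met by the siMyolinc list (95% Wilson interval 4.42 to 8.04%), against 10.5% of all peaks. For MyoD the share was 1.82% (1.55 to 2.15%), against 1.77% of all peaks, and for Myogenin 0.237% (0.161 to 0.350%), against 0.355% of all peaks. Under this rule the SINE share was below that of all peaks for TDP-43, Pol II S2P and Myogenin. The MyoD interval included the value for all peaks. LINE peaks gave 5.35%, 4.78% and 6.37% in TDP-43 controls 1 to 3, 7.08% in Pol II S2P, 1.27% in MyoD and 0.299% in Myogenin. LTR peaks gave 5.80%, 4.81%, 4.72%, 9.46%, 1.51% and 0.260% in the same order. All of these lay below the share of all peaks, so a low share was not particular to SINEs. The intervals cover counting error only, and the levels depended on the rule. With peaks extended by 200 bp on each side the SINE shares were 9.87% in Pol II S2P, 5.48% in MyoD and 1.02% in Myogenin, and in lists of equal length 0.439%, 0.256% and 0%. The MyoD and Myogenin siMyolinc peaks had a median width of 75 bp, and the part of peak width in these shares was not tested. Between antibodies, Pol II S2P control met 4.73%, 9.65% and 10.3% of the SINE peaks of TDP-43 controls 1 to 3, against 12%, 19.7% and 21.6% of all their peaks. Myogenin control met 2.61% of the SINE peaks of MyoD control (2.28 to 2.99%), against 2.58% of all peaks.

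Merging overlapping SINE peaks gave 49568 positions, of which 48209 (97.3%) appeared in 1 list. A position counted in a list only where that list had a SINE peak there. Peaks of all classes were not merged in this way, so these counts lack a share over all peaks. They are therefore not read as a result on SINEs. In 2 lists there were 1274 positions, in 3 lists 66, in 4 lists 14, in 5 lists 4 and in 6 lists 1. All 19 positions found in 4 or more lists were in at least 2 TDP-43 controls, and 14 of them were also in Pol II S2P control. The TDP-43 controls shared 88 positions between at least 2 libraries, of which 7 were in TDP-43 siMyolinc. They shared 12 positions among all 3, of which 5 were in Pol II S2P control and 1 in TDP-43 siMyolinc.

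That 1 position was the most widely listed SINE. It was a B4A element at chr19:43724195-43724482 (mm10), in an intron, with Cox15, a cytochrome c oxidase assembly factor, as the nearest gene. It held 10 tags in TDP-43 siMyolinc, against 14, 5 and 5 tags in TDP-43 controls 1 to 3, and 24 tags in Pol II S2P siMyolinc, against 7 in Pol II S2P control. It had a SINE peak in all libraries of these antibodies and in none for MyoD or Myogenin. A B4A element in intron 4 of Cacna1a, a neuronal calcium channel gene (chr8:84515787-84516080), held 16 tags in TDP-43 siMyolinc, against 19 in control 1 and 6 in control 3. It also held 8 tags in Pol II S2P siMyolinc, against 5 in Pol II S2P control. A B2_Mm2 element in intron 1 of Fbxw4, an F-box protein gene (chr19:45650083-45650362), held 18 tags in TDP-43 siMyolinc, against 11 in control 1 and 10 in control 3. It also appeared in Pol II S2P control with 14 tags and in MyoD siMyolinc with 7. These 3 elements were thus listed for TDP-43 in both conditions.

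Other widely listed positions had SINE peaks in the TDP-43 controls and none in the TDP-43 siMyolinc list. Peaks of that list without a SINE label were not searched there. An ID_B1 element in an intron of Camta1, a calmodulin-binding transcription activator (chr4:151494416-151494700), held 11, 10 and 15 tags in TDP-43 controls 1 to 3, 6 in Pol II S2P control and 27 in MyoD siMyolinc. A B2_Mm1a element between genes (chr2:17818844-17819092) had Nebl, which encodes the Z-disc protein nebulette, as the nearest gene. Its peak lay at -87900 bp from the Nebl start in TDP-43 control 1. The element held 12, 10 and 7 tags in the TDP-43 controls and 25 in MyoD siMyolinc. A B4A element in intron 1 of Ptpra, a receptor tyrosine phosphatase (chr2:130458953-130459249), held 17, 7 and 7 tags there and 6 in Pol II S2P control. A young B1 also appeared, a B1_Mus1 nearest to Polr3k, a subunit gene of RNA polymerase III (chr2:181918871-181919149), with 10 and 13 tags in TDP-43 controls 2 and 3, 21 in Pol II S2P control and 16 in MyoD control.

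Young B1 elements in introns of Sfi1, a centrosome gene on chromosome 11, led several lists. The best SINE peak of each TDP-43 control lay there, a B1_Mm with 86 tags in control 1 (chr11:3190631-3190879) and B1_Mus1 peaks with 18 tags each in control 2 (chr11:3176703-3176921) and control 3 (chr11:3176723-3176941). The last 2 peaks overlap. All 3 leading SINE peaks of Pol II S2P control were B1_Mus1 in Sfi1, with 38, 34 and 32 tags, and the leading SINE peak of Pol II S2P siMyolinc was a B1_Mus2 there with 76 tags (chr11:3184441-3184659). The TDP-43 siMyolinc and MyoD control lists had no peak at all with Sfi1 as nearest gene. Peaks nearest to Sfi1 were not all in SINEs. MyoD siMyolinc had 26 of any class, of which 6 were SINE peaks and 3 young B1. These counts were 10, 4 and 3 in Myogenin siMyolinc and 7, 2 and 0 in Myogenin control. In Pol II S2P control all 3 were young B1. The leading SINE peaks of TDP-43 siMyolinc were instead a B4A in an intron of Dnah8, an axonemal dynein gene (20 tags, chr17:30671621-30671837), the Fbxw4 element, and a B2_Mm2 nearest to Rhov, a small GTPase gene (18 tags, chr2:119259946-119260162). MyoD siMyolinc was led by a B3A nearest to Tubb6, a tubulin gene (95 tags), and MyoD control by a B2_Mm1t nearest to P4ha2, a collagen prolyl hydroxylase gene (68 tags). Myogenin siMyolinc was led by a B1_Mus2 in an intron of Eml4, a microtubule-binding protein gene (390 tags), and Myogenin control by a B3 nearest to Mapk8, a stress-activated kinase gene (59 tags).

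By the authors' annotation all SINE peaks lay in introns or between genes. No peak with their promoter or exon label also carried a SINE label, so this is not read as a result on location. The SINE group thus lacks peaks with their promoter label, which bears on its distances beside all other peaks. The intron share was 52.9% in TDP-43 siMyolinc, against 53.2%, 48.0% and 50.2% in TDP-43 controls 1 to 3, and ranged over 45.7 to 52.9% in the other 6 lists. The siMyolinc library lay inside the range of its controls. SINE peaks lay closer to transcription starts than other intron and intergenic peaks did. Their median distance was 25.2 kb in TDP-43 siMyolinc, against 27.0, 33.3 and 27.1 kb in TDP-43 controls 1 to 3, where other intron and intergenic peaks lay at 42.3 kb in siMyolinc and at 39.2, 36.3 and 37.5 kb in the controls. Over the 10 lists the SINE median ranged from 24.6 to 33.3 kb and was the lower of the 2 in each. Set against all other peaks, promoter and exon peaks included, SINE peaks lay farther from a start in the TDP-43 controls, where other peaks lay at 23.7, 19.8 and 19.3 kb, and in Pol II S2P control, at 29.9 kb against 24.4 kb. In the other 6 lists they lay closer. Chromosome 11 ranked 1 or 2 of 20 chromosomes by SINE share in TDP-43 siMyolinc, Pol II S2P siMyolinc and all MyoD and Myogenin lists. It ranked 7 in Pol II S2P control and 13, 14 and 13 in TDP-43 controls 1 to 3. On chromosome 11 the SINE share was 13.3% in TDP-43 siMyolinc, against 3.72%, 2.88% and 2.64% in TDP-43 controls 1 to 3.

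Muscle genes were near a SINE peak of TDP-43 in counts of 0 to 2 per list, too few to set apart from the share of all genes. A gene counted where it was the nearest gene to a SINE peak within 10 kb of its start, which held for 2.56% of 21900 protein-coding genes in TDP-43 siMyolinc, against 1.05%, 0.265% and 0.215% in TDP-43 controls 1 to 3. Of 80 muscle structure and contraction genes there were 2 in TDP-43 siMyolinc, against 1, 1 and 0 in the controls, and of 52 myogenic regulators 1, against 1, 0 and 0. In TDP-43 siMyolinc these were Stac3, a regulator of the muscle calcium channel (RSINE1, 8 tags, at -1289 bp from the start), Jph2, which joins membranes at the triad (RSINE1, 8 tags, at -2366 bp), and the transcription factor gene Mef2d (B1_Mur4, 6 tags). The myogenic regulator in control 1 was the histone methyltransferase gene Ezh2 (RSINE1, 7 tags).

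Several other lists had larger counts and larger backgrounds. In Pol II S2P siMyolinc 18 of 80 muscle genes (22.5%) and 12 of 52 regulators (23.1%) had a near SINE peak, beside 13.4% of all protein-coding genes. In Pol II S2P control 1 muscle gene (1.25%) and 0 regulators had one, beside 0.562% of all genes. The best such peak of a muscle gene in Pol II S2P siMyolinc was a MIR with 21 tags near Mb, which encodes myoglobin. In MyoD siMyolinc 5 muscle genes (6.25%) and 10 regulators (19.2%) were listed, beside 9.58% of all genes, against 5 (6.25%) and 2 (3.85%), beside 7.12%, in MyoD control. Srf, a transcription factor for muscle actin genes, appeared in both, at a B3 peak of 36 tags in siMyolinc (chr17:46562685-46562759) and a B1_Mus1 peak of 13 tags in control (chr17:46562981-46563211) that do not overlap. In Myogenin siMyolinc 0 muscle genes and 2 regulators (3.85%) were listed, beside 1.68% of all genes, against 10 (12.5%) and 5 (9.62%), beside 9.13%, in Myogenin control. These counts were not tested.

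Some promoter windows were met by SINE peaks of more than 1 list, and their number was not counted. The Gm52563 window (chr2:130637931-130638230, plus strand) is shown because a MIR peak lay over it in separate antibodies. This peak held 6 tags in TDP-43 control 3 and 7 tags in Pol II S2P control. No SINE peak of the siMyolinc lists met the window. The window contains neither GTTCNANNC nor GTGTGT.
Gm52563: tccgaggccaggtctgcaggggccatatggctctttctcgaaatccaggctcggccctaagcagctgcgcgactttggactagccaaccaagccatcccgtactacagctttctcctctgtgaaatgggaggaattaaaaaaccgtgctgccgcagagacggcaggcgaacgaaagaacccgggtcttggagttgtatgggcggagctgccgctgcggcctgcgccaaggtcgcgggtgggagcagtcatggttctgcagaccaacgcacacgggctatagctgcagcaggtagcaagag

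The Gm33575 window (chr1:119443628-119443927, plus strand) was met at a B4 element by MyoD siMyolinc (36 tags) and by TDP-43 control 1 (12 tags), with Inhbb, an activin subunit gene, as the nearest gene. The Gm52875 window (chr6:119537688-119537987, plus strand) was met at an RSINE1 by Pol II S2P siMyolinc (22 tags) and Myogenin control (19 tags), with Wnt5b as the nearest gene. SINE peaks met 2 annotated microRNA hairpins, Mir6347 in a MIRc element (11 tags) and Gm51275 in a B3 element (7 tags), both in MyoD control.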

How the data were processed

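ChIP-seq peak lists of C2C12 cells were analysed for 10 of 14 samples: 4 siMyolinc and 6 control libraries. Per the labels' protocols each precipitation used 10 µg of antibody and libraries had 18 PCR cycles. The authors annotated peaks with HOMER on mm10, 1 list per library against IgG, per the file headers and the submitters' processing notes. Aligner, caller settings and versions: not given in the sources used here. The deposited score of a peak comes from the authors, and peaks were ranked by it only within their own list. Tags read from it were also printed side by side across lists, without adjustment for depth. Scores were whole multiples of a step within a tolerance of 0.05 once the 1% highest were set aside, and the step was read as 1 tag. The deposited distance to the nearest start, per the file headers, was used as absolute value.

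Members were chosen by the repeat class in the authors' annotation; 10 peaks whose class was uncertain were left out, as were 42 peaks on chrM. Shares carry 95% Wilson intervals, which cover counting error only, as PCR reads are not independent molecules. Shares across libraries were compared by exact two-sided permutation tests, whose smallest p is 0.25 for 1 library against 3, 0.1 for 3 against 3 and 0.03125 within antibody. The members and gene lists were chosen with earlier results of these data known. Named peaks were the 3 best SINE peaks per list, the 8 positions in most lists, the 3 best peaks within 10 kb of genes of each of 2 lists per library, the 3 promoter windows met by most lists, the 10 most frequent repeat names and names outside the TDP-43 control range. The young B1 group, the B2 copies and the B1 copies shown were chosen after values were seen. Sequences came from RefSeq promoter windows (GRCm38.p6). The code for the tag step, the overlaps and the permutations was tested on simulated data. Python 3.11.15, numpy 2.4.6, pandas 2.3.3, scipy 1.17.1 and matplotlib 3.10.9 were used. Results on some genes are not reported here.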

Additional observations from a re-analysis of the deposited data

Results flagged for a closer look

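Some differences between siMyolinc and control ran in opposite directions for different antibodies, and these were not tested against each other. The SINE share of peaks was 1.08 points lower in MyoD siMyolinc than in MyoD control (-1.08) and 1.30 points lower in Myogenin siMyolinc than in Myogenin control (-1.30). In TDP-43 it was 7.14 points higher in siMyolinc. The B2 share of SINE peaks was lower in Myogenin siMyolinc than in Myogenin control (-4.27 points), while it was 13.3 points higher in TDP-43 siMyolinc than in the TDP-43 control mean. The MyoD and Myogenin siMyolinc libraries were single, had peaks of 75 bp and differed little in depth from their controls. Under the same scaling the TDP-43 siMyolinc library was deeper than its controls.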

How the results depend on the processing

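Over 18 results and 126 alternatives, 15 values moved and 2 changed direction. In 13 of the 126, which kept placed chromosomes alone, the value was identical and nothing was tested. Of the other 113, 96 were counted as the same. For differences in share this meant an unchanged sign and the same side of 0.05, so their size was not compared. The TDP-43 SINE difference was 19.2 points among peaks in an annotated repeat alone, in place of 7.14, and counted as the same. The TDP-43 tests cannot pass 0.05 at these group sizes, so their p-values say nothing of stability. The B4 share of SINE peaks in TDP-43 siMyolinc minus control was 1.47 points. It was -3.09 points among peaks at or above their list's median score and -1.05 without TDP-43 control replicate 3. Leaving out each control in turn, it ranged over -1.05 to 3.77. The other TDP-43 differences kept their sign in every alternative run. Leaving out each control in turn gave 6.90 to 7.43 points for the SINE share, -22.8 to -15.6 for Alu, 12.5 to 14.5 for B2 and 3.78 to 4.98 for MIR. Without the MyoD and Myogenin pairs the differences averaged within antibody were larger, at 7.14 points for the SINE share, -24.9 for Alu, 14.1 for B2, 7.37 for B4 and 3.33 for MIR.

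The share of control SINE peaks found again after knockdown depended on the overlap rule. After extending peaks by 200 bp, 9.87% of Pol II S2P, 5.48% of MyoD and 1.02% of Myogenin control SINE peaks were met. Requiring 50% of the shorter peak to overlap left 1.32% of MyoD peaks. Requiring the same repeat name left 1.97% of TDP-43, 0.853% of MyoD and 0.142% of Myogenin peaks. Among peaks whose score reached their list's median, 3.99% of TDP-43, 4.40% of Pol II S2P, 0.783% of MyoD and 0.125% of Myogenin peaks were met. In lists cut to 8162 peaks the shares were 0.439% in Pol II S2P, 0.256% in MyoD and 0% in Myogenin, where fewer peaks can be met by construction. The median distance of SINE peaks to a start differed from that of all other peaks by -9754 bp (median over lists, with SINE peaks farther from a start in the TDP-43 and Pol II S2P controls) and from that of other intron and intergenic peaks by -18095 bp. The cause was not tested for these values except where stated.

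No paired analysis was possible because the TDP-43 conditions share 1 replicate number and the other groups have 1 library each. The test within antibody matches the conditions by antibody and uses no replicate number. The median SINE peak held 5 to 8 tags in 6 of the 10 lists, and whether a peak missing from another list lay under its detection limit cannot be told at this depth. The SINE content of the genome, the divergence of each copy and the signal of the input samples were not analysed here.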
